A study of Mus musculus with 5 samples.

Results

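The genes described here are those of DNA replication and S phase, the part of the cell cycle in which the genome is copied. They were chosen by name, with earlier results of these data known. The rule took every probe set of the deposited table that the array annotation gives to a single gene among 35 listed genes. This found 76 of the 45101 probe sets, for 34 of the 35 genes. Chaf1a had no probe set by that rule, so its RNA is not described here, but its promoter window is counted below. The study measured RNA by array in 5 samples of sorted tracheal epithelial cells from C57Bl/6 mice aged 8 to 12 weeks, male and female, each sample a separate pool of 10 to 15 mice. The 3 duct samples are cells of the submucosal gland ducts from the upper part of the trachea, sorted by a surface antigen after pronase had removed the surface epithelium. The 2 basal samples are surface cells from the lower part of the trachea, freed with dispase, and the gate for them used ITGA6 among its antigens. The labels name no genetic change and no agent for any of the 5 samples. Section, enzyme and gate change together with the cell type and cannot be told apart from it.

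Replication begins when the origin recognition complex, with CDC6 and CDT1, loads the ring-shaped MCM helicase onto DNA in the G1 phase. In S phase CDC45 and the GINS complex join the helicase, polymerase alpha with its primase lays down primers, polymerases epsilon and delta extend the strands, and the PCNA clamp, loaded by replication factor C, holds the polymerases on DNA. E2F transcription factors, held back by the RB family until the cell commits to division, switch on many of these genes together, so their transcripts mark cells in or near S phase. Basal cells are the resident stem cells of the tracheal surface, gland ducts also hold progenitors, and both are known to divide slowly in the undisturbed adult airway.

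Promoter sequence is shown first because E2F sites are the textbook link between these genes. RefSeq windows of 300 bases (build GRCm38.p6), from 250 bases before to 50 bases after the annotated start, were found for 30 of the 35 genes, taking the window listed first for each gene. The E2F motif was searched as TTTCCCGC, TTTCGCGC, TTTGCCGC or TTTGGCGC on both strands, and matches may overlap each other or another motif. Of the 30 windows 9 held it, which is 30% of them, against 4.02% of 10102 windows of tested genes and 2.32% of all 27025 genes in the table. Mcm6 held 3 matches, and Mcm3, Mcm5, Mcm7 and Rfc3 held 2 each; of these the 4 MCM helicase genes are shown, since ties were settled by the larger fold change. Their windows are printed 5′ to 3′ on the strand of the gene, with the matches in capitals.

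Mcm6 (chr1:128359656-128359955, minus strand): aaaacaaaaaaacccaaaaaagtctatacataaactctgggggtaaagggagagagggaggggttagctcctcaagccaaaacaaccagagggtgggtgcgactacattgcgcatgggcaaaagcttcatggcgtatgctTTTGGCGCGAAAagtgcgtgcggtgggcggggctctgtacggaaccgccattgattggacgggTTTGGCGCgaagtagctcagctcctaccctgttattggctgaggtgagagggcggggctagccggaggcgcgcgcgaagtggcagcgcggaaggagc
Mcm3 (chr1:20820263-20820562, minus strand): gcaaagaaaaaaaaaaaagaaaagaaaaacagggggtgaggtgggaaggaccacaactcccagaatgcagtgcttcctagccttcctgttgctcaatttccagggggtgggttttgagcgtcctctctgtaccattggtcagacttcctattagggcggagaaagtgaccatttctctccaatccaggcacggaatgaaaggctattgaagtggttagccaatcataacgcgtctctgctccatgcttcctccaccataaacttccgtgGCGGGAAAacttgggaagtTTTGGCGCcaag
Mcm5 (chr8:75109259-75109558, plus strand): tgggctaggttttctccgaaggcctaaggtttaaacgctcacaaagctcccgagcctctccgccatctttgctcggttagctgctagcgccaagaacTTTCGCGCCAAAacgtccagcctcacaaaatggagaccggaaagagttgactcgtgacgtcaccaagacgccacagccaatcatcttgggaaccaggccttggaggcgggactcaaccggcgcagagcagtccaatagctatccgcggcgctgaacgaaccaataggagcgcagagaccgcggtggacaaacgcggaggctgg
Mcm7 (chr5:138171834-138172133, minus strand): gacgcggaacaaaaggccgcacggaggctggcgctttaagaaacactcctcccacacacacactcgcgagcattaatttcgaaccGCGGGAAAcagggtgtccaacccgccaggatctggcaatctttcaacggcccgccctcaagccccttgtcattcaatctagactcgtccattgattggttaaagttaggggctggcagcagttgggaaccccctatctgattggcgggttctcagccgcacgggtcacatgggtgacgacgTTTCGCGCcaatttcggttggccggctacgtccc

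In Mcm6 a pair of overlapping matches began 110 and 106 bases before the start and another 47 bases before it. In Mcm5 an overlapping pair began 153 and 149 bases before the start. In Mcm7 one match lay 165 bases before the start and the other 16 bases after it. In Mcm3 both matches lay after the start, by 19 and 38 bases. A match describes these letters only.

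Other motifs of cell cycle promoters were counted in the same windows. The CCAAT box (CCAAT, both strands) was in 60% of the 30 S phase windows, in 78.6% of the 28 windows of mitosis genes and in 38.3% of those of tested genes. The cell cycle homology element, known from promoters of mitosis genes and searched as TTTGAA or TTCGAA on both strands, was in 16.7% of S phase windows and in 78.6% of mitosis windows, against 14.1% of those of tested genes. The E2F motif was in 1 of the 28 mitosis windows, or 3.57%. The GC box (GGGCGG, both strands) was in 66.7% of S phase windows, 85.7% of mitosis windows and 62.6% of those of tested genes. The 9 S phase genes with an E2F match had a median log2 fold change, duct minus basal, of 0.88, and the 20 tested ones without a match one of 0.67. Over all tested genes the medians were -0.034 with a match (n = 406) and -0.12 without (n = 9696). These are descriptions of the windows, with no test.

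**Figure D1:**
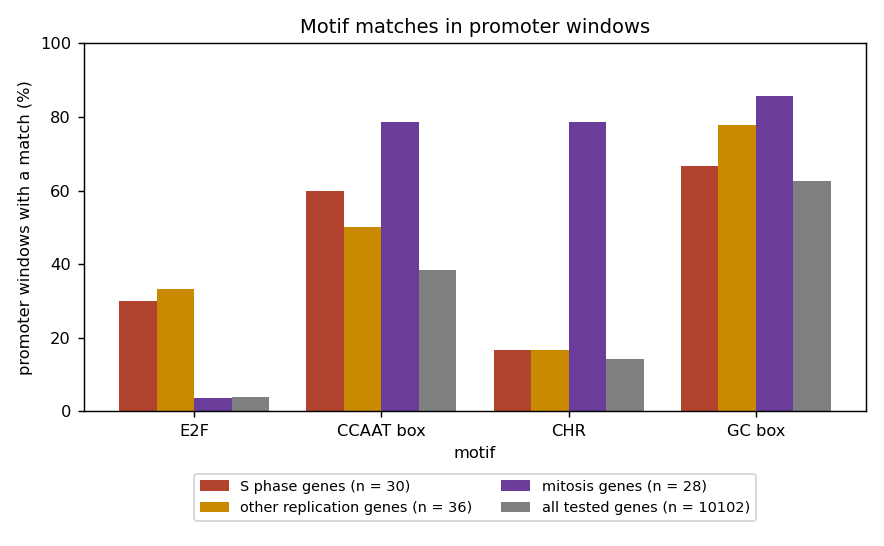
Share of promoter windows (y axis, percent) that hold each motif (x axis), in 30 S phase genes, 36 other replication genes, 28 mitosis genes and 10102 tested genes. E2F matches are in 30% and 33.3% of the windows of the replication groups and in 3.57% of mitosis windows, and the cell cycle homology element (CHR) is in 78.6% of mitosis windows.

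Intensities are linear and in arbitrary units, scaled by the authors to a common mean on each array, so a gene's level is relative to the other transcripts of its sample. Fold changes are differences of log2(intensity + 16), tested with limma over all 12536 genes that remained after the dimmest 40% of probe sets had been left out. Each gene stands by its most intense probe set. The median log2 fold change of all tested genes was -0.12. Median intensity was 92.3 on duct replicate 1 and 149.1 and 149.4 on duct replicates 2 and 3, against 152.8 and 146.5 on the basal arrays. On duct replicate 3 the Y-linked gene Eif2s3y measured 3.06, against 787.8 and 693.9 on duct replicates 1 and 2 and 163.6 and 532 on the basal arrays, so that pool stands apart from the others in this gene. The ratio of the 3′ to the 5′ control probe set of Gapdh, a sign of RNA quality, was 3.92 to 4.37 on the duct arrays and 3.24 and 4.64 on the basal arrays. For Actb that ratio was 0.94 to 1.01 on the duct arrays and 0.91 and 0.97 on the basal arrays. Probe sets above the brightest Bacillus control, a measure of background, made up 67.2% to 74.6% on the duct arrays. On basal replicates 1 and 2 they made up 71.6% and 62.5%. With only 5 arrays, precision is limited.

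Most S phase genes had higher levels in duct than in basal cells, with no overlap between the arrays for Mcm3, Mcm5, Pole, Orc6, Tk1 and others, but no single gene passed the test. Of the 34 genes 33 passed the filter on low values. Among them 31 had a positive log2 fold change, against 41.6% of all tested genes, and the median was 0.69. In 21 of the 33 every duct array exceeded every basal array, against 16.5% of all tested genes, and in none was every duct array below every basal array, against 22.6%. With limma 0 of the 33 were called higher or lower at an adjusted p under 0.05, against 0.838% of all tested genes called higher and 0.136% called lower. At an unadjusted p under 0.05, 14 were higher and 0 were lower, against 7.91% and 10.6% of all tested genes. Without duct replicate 1, duct replicate 3 or basal replicate 1 the number that were higher at an unadjusted p under 0.05 was 9, 7 and 7, against 7.47%, 6.02% and 5.4% of all tested genes, and the median was 0.67, 0.69 and 0.55. Without duct replicate 3, 1 gene (Tyms) was lower at that level, against 9.27% of all tested genes. The adjusted p of the 33 ran from 0.0714 for Mcm5 to 0.951 for Mcm2. Without a filter, 32 of the 34 genes were positive and the median was 0.69. In these bulk samples a larger share of cycling cells and more RNA of these genes per cell cannot be told apart.

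The difference had the same sign on each duct array. Set against the mean of the basal arrays, the 33 genes had a median log2 difference of 0.69 on duct replicate 1, 0.54 on duct replicate 2 and 0.77 on duct replicate 3, while all tested genes had -0.18, -0.034 and -0.054. The highest value of a gene lay on duct replicate 3 in 17 of the 33 genes, on duct replicate 1 in 8, on duct replicate 2 in 8 and on a basal array in 0. The basal arrays did not separate: basal replicate 2 was above basal replicate 1 in 16 genes and below it in 17.

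**Figure D2:**
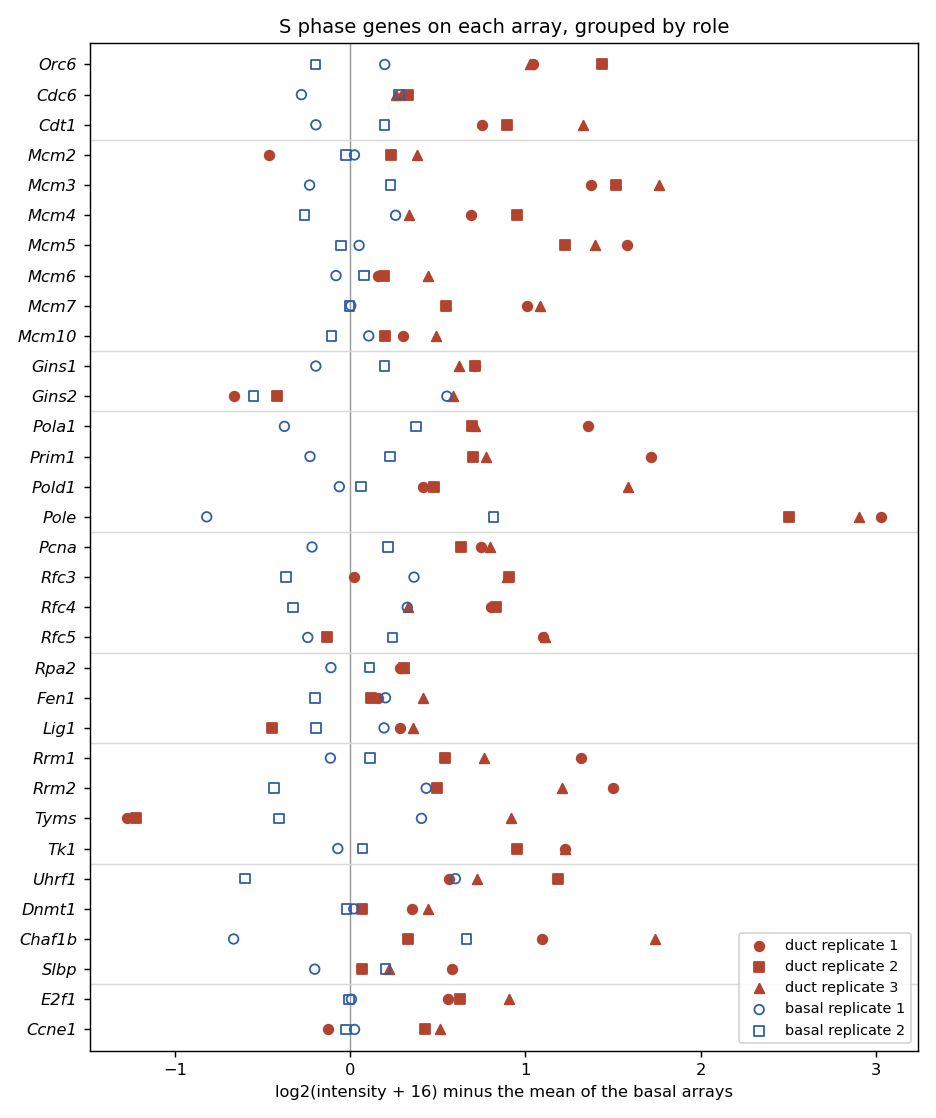
Values of the 33 tested S phase genes on each array, as log2(intensity + 16) minus the mean of the basal arrays (x axis), with genes grouped by role from origin licensing at the top to G1/S control at the bottom (y axis). Filled points are duct arrays and open points basal arrays; all duct points lie to the right of both basal points in 21 genes, and in Mcm2, Gins2, Rfc5, Lig1, Tyms and Ccne1 duct points fall on both sides of 0.

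Origin recognition and licensing was represented by Orc6, Cdc6 and Cdt1. Orc6, the smallest subunit of the origin recognition complex, measured 959.9, 1267 and 949 on the duct arrays, against 527 and 397 on the basal arrays. The groups did not overlap, and the log2 fold change was 1.17 (SE 0.27, adjusted p = 0.114). Cdt1, which brings the MCM ring to the origin, measured 1487, 1643 and 2232 on the duct arrays, against 764 and 1007 on the basal arrays. All duct arrays were above both basal arrays, by 0.99 (SE 0.29, adjusted p = 0.171). A dimmer probe set of Cdt1 had 380.1, 409.8 and 236 on the duct arrays, against 398 and 124 on the basal arrays, where duct replicates 1 and 3 fell between the basal arrays (0.54). Cdc6, the loading ATPase, measured 221, 225 and 214 on the duct arrays, against 142 and 217 on the basal arrays. Here basal replicate 2 stood inside the duct range, and the difference of 0.30 (SE 0.27, adjusted p = 0.594) was within the spread between arrays.

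The MCM genes, which encode the subunits of the replicative helicase, had log2 fold changes of different size, not tested against each other, although MCM2 to MCM7 act as one ring. Mcm3 measured 1186, 1311 and 1563 on the duct arrays, against 379.7 and 529 on the basal arrays. The lowest duct array was 2.24 times the higher basal array, and the log2 fold change was 1.55 (SE 0.27, adjusted p = 0.0727). Of the other 4 tested probe sets of Mcm3, 2 gave log2 fold changes of 1.43 and 1.60. On another both basal arrays were within the Bacillus controls, a measure of background, so its fold is only a bound, at least 2.81-fold higher in duct cells. The fourth gave 0.11 and had 189, 436 and 238 on the duct arrays, against 256 and 243 on the basal arrays, with duct and basal arrays interleaved. Mcm5 measured 3053, 2383 and 2691 on the duct arrays, against 1048 and 975 on the basal arrays. The groups lay far apart on this probe set, at 1.40 (SE 0.24, adjusted p = 0.0714). It is of the kind that may also bind related transcripts. The other tested Mcm5 probe set, without that mark, had 282, 211 and 345 on the duct arrays, against 15.9 and 93.9 on the basal arrays. It gave 2.29, but its value on basal replicate 1 was under the brightest Bacillus control of that array (59.7). The size of that fold is therefore uncertain.

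Mcm7 measured 2816, 2046 and 2969.5 on the duct arrays, against 1397 and 1390.0 on the basal arrays. The basal arrays were nearly equal and lay below all duct arrays (0.88 (SE 0.27, adjusted p = 0.181)). Its 4 tested probe sets did not agree in sign: those at 1.17, 0.88 and 0.64 are of the kind that may also bind related transcripts, and the dim one without that mark had 164, 211 and 165 on the duct arrays, against 217 and 177 on the basal arrays (-0.12). Mcm4 measured 2317, 2785 and 1806 on the duct arrays, against 1714 and 1191 on the basal arrays. Duct replicate 3 stood just above basal replicate 1, and the fold change was 0.66 (SE 0.31, adjusted p = 0.325). Its second probe set, without overlap between groups, gave 0.89.

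Mcm2 measured 187, 312 and 349 on the duct arrays, against 268 and 259 on the basal arrays. Duct replicate 1 was the lowest array and duct replicate 3 the highest, so the groups overlapped (0.050 (SE 0.33, adjusted p = 0.951)), and a second probe set gave -0.20. Mcm6 averaged 4167 ± 465 in duct and 3453 ± 274 in basal cells (SD, n = 3 and 2), a log2 fold change of 0.27 with adjusted p = 0.595; its groups did not overlap but lay close together, and its second tested probe set, also without overlap, gave 0.62. Mcm10, a replication initiation factor outside the ring, averaged 126 ± 14.6 in duct and 96.8 ± 11.7 in basal cells and was at 0.33 with adjusted p = 0.511; its other tested probe set gave 0.76, with overlap.

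GINS, the complex that activates the loaded helicase, had 2 measured subunits. Gins1 measured 238, 238 and 222 on the duct arrays, against 119 and 161 on the basal arrays. The duct arrays were close to each other and above both basal arrays (0.68 (SE 0.25, adjusted p = 0.229)). Gins2 measured 368, 438 and 895 on the duct arrays, against 873 and 398 on the basal arrays. Duct replicate 3 and basal replicate 1 were high together and the other arrays low, so the groups overlapped throughout (-0.16 (SE 0.51, adjusted p = 0.891)). Its second probe set had 576, 351 and 794 on the duct arrays, against 399 and 509 on the basal arrays and gave 0.26.

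All 4 polymerase and primase genes had every duct array above every basal array on the probe set that stands for them. The share was 63.6% of all tested S phase genes and 16.5% of all tested genes. The median log2 fold change of these 4 genes was 0.99. Pole, the catalytic subunit of the leading-strand polymerase epsilon, measured 274, 186 and 249 on the duct arrays, against 4.14 and 46.6 on the basal arrays. Both basal values lay within the range of the Bacillus control probe sets, so the fold is given as at least 3.25-fold higher in duct cells; the fitted log2 fold change was 2.81 (SE 0.51, adjusted p = 0.0757). Prim1, the small primase subunit that makes RNA primers, measured 1274, 622 and 655 on the duct arrays, against 318 and 443 on the basal arrays. Duct replicate 1 was set apart above the other duct arrays (1.07 (SE 0.40, adjusted p = 0.238)), and the other probe set, without overlap between groups, gave 1.11.

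Pola1, the catalytic subunit of polymerase alpha, measured 395, 244 and 247 on the duct arrays, against 107 and 192 on the basal arrays. The lowest duct array was above the higher basal array (0.92 (SE 0.36, adjusted p = 0.258)). Pold1, the catalytic subunit of the lagging-strand polymerase delta, measured 735, 767 and 1675 on the duct arrays, against 523 and 571 on the basal arrays. Duct replicate 3 was far above the other duct arrays, and the 95% interval of the log2 fold change of 0.83, -0.20 to 1.86, took in 0. The other Pold1 probe set, which lacks the mark of possible cross-binding, had 118, 205 and 375 on the duct arrays, against 231 and 289 on the basal arrays (-0.28), so the direction for this gene rests on the brighter probe set.

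Among the clamp and its loader, Pcna measured 7303, 6730.3 and 7546 on the duct arrays, against 3731 and 5050.0 on the basal arrays. The groups did not overlap, at 0.72 (SE 0.25, adjusted p = 0.219), and the gene has 1 probe set. Rfc4, Rfc5 and Rfc3 encode small subunits of the loader replication factor C. Rfc4 measured 502, 513 and 357 on the duct arrays, against 356 and 221 on the basal arrays. Duct replicate 3 and basal replicate 1 were almost equal (0.66 (SE 0.32, adjusted p = 0.341)). This probe set may bind related transcripts, and the other one, without that mark, had 415, 262 and 176 on the duct arrays, against 263 and 218 on the basal arrays and gave 0.16, with overlap.

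Rfc5 measured 639.7, 264 and 647 on the duct arrays, against 243 and 346 on the basal arrays. Duct replicate 2 lay between the basal arrays while the other duct arrays were well above (0.69 (SE 0.46, adjusted p = 0.474)). Rfc3 measured 269.8, 512 and 508 on the duct arrays, against 347 and 203 on the basal arrays. Duct replicate 1 lay between the basal arrays (0.61 (SE 0.40, adjusted p = 0.473)), and the second probe set gave -0.25.

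Genes of single-strand protection and of Okazaki fragment joining had a median log2 fold change of 0.23. Rpa2, a subunit of the single-strand binding protein RPA, measured 734, 746 and 745 on the duct arrays, against 554 and 648 on the basal arrays. The duct arrays were within a narrow range just above the basal arrays (0.30 (SE 0.23, adjusted p = 0.529)). A dimmer Rpa2 probe set had 69.6, 319 and 219 on the duct arrays, against 229 and 476 on the basal arrays, lower in duct cells on balance but with overlap (-0.88).

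Fen1, the flap nuclease that trims Okazaki fragments, measured 2219, 2157 and 2659 on the duct arrays, against 2290.0 and 1727 on the basal arrays. Basal replicate 1 lay inside the duct range (0.23 (SE 0.26, adjusted p = 0.682)). Lig1, the ligase that seals them, measured 974, 581 and 1027 on the duct arrays, against 913 and 695 on the basal arrays. Duct replicate 2 was the lowest of the 5 arrays and duct replicate 3 the highest (0.066 (SE 0.34, adjusted p = 0.938)), and the 95% interval of -0.78 to 0.91 still allows a difference as large as those of many other members.

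In 3 of 4 genes that supply nucleotides for DNA synthesis every duct array exceeded every basal array, against 16.5% of all tested genes. Tk1, thymidine kinase of the salvage route, measured 438, 359.7 and 437 on the duct arrays, against 169 and 188 on the basal arrays. The lowest duct array was 1.92 times the higher basal array, at 1.14 (SE 0.24, adjusted p = 0.0957). Rrm1, the large subunit of ribonucleotide reductase, measured 3899.9, 2278 and 2659 on the duct arrays, against 1439.7 and 1686 on the basal arrays. The groups did not overlap (0.87 (SE 0.31, adjusted p = 0.228)), nor did they on the other tested probe set (1.18).

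Rrm2, the small subunit whose level follows S phase, measured 5510.5, 2739.8 and 4501 on the duct arrays, against 2628 and 1432 on the basal arrays. Duct replicate 2 and basal replicate 1 lay close together and the other arrays far apart (1.07 (SE 0.42, adjusted p = 0.265)); the 2 further probe sets gave 0.80 and 0.80. Tyms, thymidylate synthase of the de novo route, had a negative fold change. It measured 82.9, 86.2 and 435 on the duct arrays, against 301 and 164 on the basal arrays. Duct replicate 3 was the highest array and the other duct arrays the lowest, so the log2 fold change of -0.53 had a 95% interval of -2.35 to 1.30 (adjusted p = 0.744). All 4 Tyms probe sets were dim, and 2 of them did not pass the filter.

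The genes that copy chromatin and its DNA methylation had 4 tested members. Uhrf1, which recognises newly copied half-methylated DNA, measured 672, 1045 and 754 on the duct arrays, against 690.4 and 291 on the basal arrays. Basal replicate 1 was just above duct replicate 1 (0.83 (SE 0.43, adjusted p = 0.365)), while on the other probe set, with 715, 556 and 657 on the duct arrays, against 206 and 327 on the basal arrays, the groups did not overlap (1.25). Dnmt1, the maintenance methyltransferase that UHRF1 recruits, measured 2505, 2055 and 2666 on the duct arrays, against 1987 and 1929.9 on the basal arrays. The duct arrays were above the basal ones by a small margin (0.29 (SE 0.24, adjusted p = 0.573)), and the other Dnmt1 probe sets gave 0.031 and -0.19.

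Chaf1b, a subunit of chromatin assembly factor 1, measured 190.3, 105 and 307 on the duct arrays, against 44.9 and 137 on the basal arrays. Basal replicate 2 lay inside the duct range (1.06 (SE 0.57, adjusted p = 0.378)). Slbp, which binds the stem-loop of histone mRNA, measured 3575, 2494 and 2776 on the duct arrays, against 2068 and 2742 on the basal arrays. Basal replicate 2 was above duct replicate 2 (0.29 (SE 0.28, adjusted p = 0.628)), and the second tested probe set gave -0.41.

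Of the G1/S regulators, E2f1, an activator E2F, measured 927, 974 and 1185 on the duct arrays, against 628 and 622 on the basal arrays. The basal arrays were nearly equal and below all duct arrays (0.70 (SE 0.24, adjusted p = 0.217)), and another probe set gave 0.42. On its last probe set both basal arrays were within the Bacillus controls, and duct cells were at least 1.95-fold higher. Ccne1, cyclin E1, which drives entry into S phase with CDK2, measured 416, 620.4 and 658 on the duct arrays, against 465 and 449 on the basal arrays. Duct replicate 1 was the lowest array (0.27 (SE 0.29, adjusted p = 0.660)). A second, dimmer Ccne1 probe set had 199.6, 728 and 330.5 on the duct arrays, against 36.0 and 29.8 on the basal arrays, with both basal arrays within the Bacillus controls and duct cells at least 5.06-fold higher. It is of the kind that may bind other transcripts, and the 2 probe sets disagree on the size of the difference. Ccne2, cyclin E2, did not pass the filter; it measured 51.6, 88.1 and 54.9 on the duct arrays, against 28.8 and 46.8 on the basal arrays.

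Over probe sets rather than genes the picture was alike in direction and less uniform. Of the 76 probe sets 63 passed the filter, and 53 of these had a positive log2 fold change, against 41.2% of all 27022 tested probe sets. In 36 of the 63 every duct array exceeded every basal array, against 14.9% of all. With limma 0 were called in either direction, against 0.215% higher and 0.0185% lower, while at an unadjusted p under 0.05 there were 23 higher and 0 lower, against 6.21% and 8.68%. The median was 0.68. Of 26 genes with several probe sets, 8 had tested probe sets that differed in sign: Dnmt1, Gins2, Mcm2, Mcm7, Pold1, Rfc3, Rpa2 and Slbp. The 13 probe sets left out as dim ran from -1.60 to 1.03, 8 of them positive. For Mcm2, Mcm4, Mcm5, Mcm6, Mcm7, Pold1, Rfc4, Fen1, Rrm2 and Dnmt1 the probe set of the gene may also bind related transcripts.

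**Figure D3:**
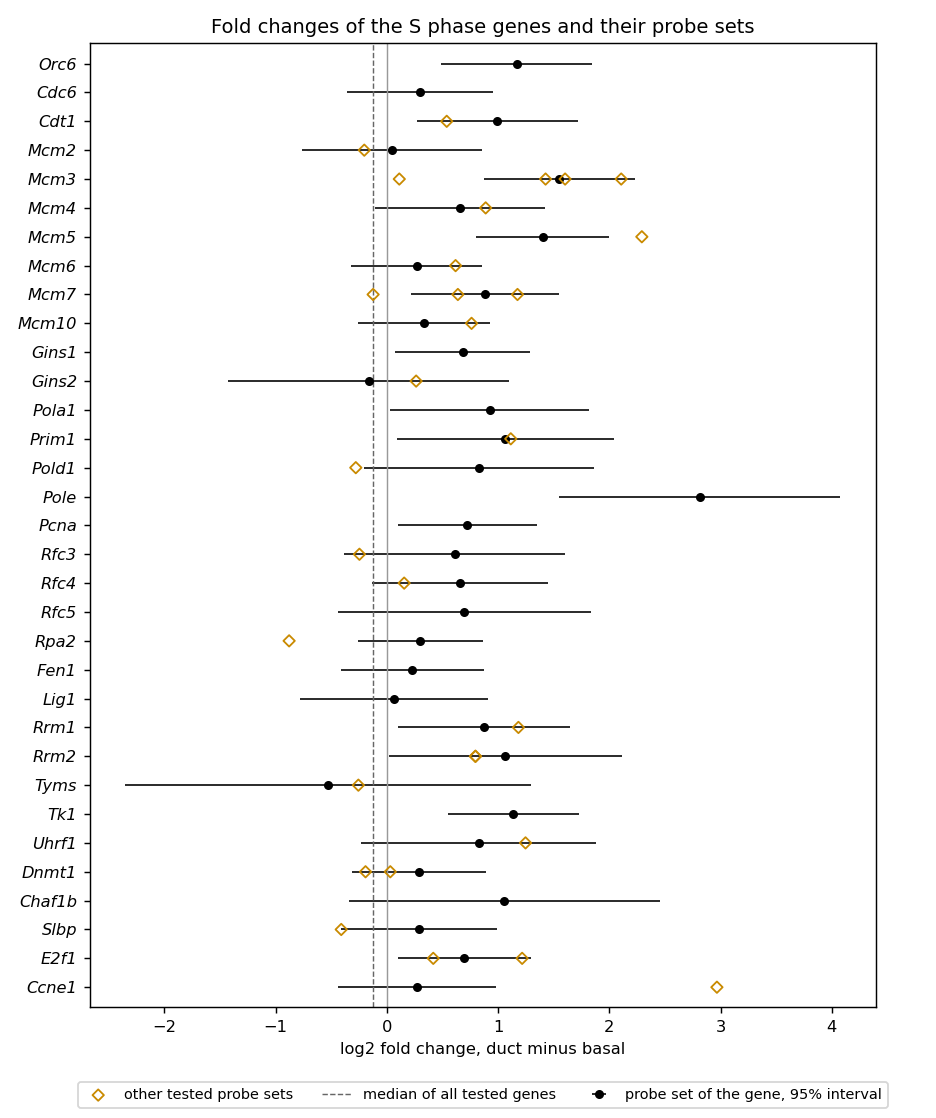
Log2 fold change, duct minus basal (x axis), of each tested S phase gene (y axis, in order of role); black points are the probe set of the gene with limma's 95% interval and diamonds its other tested probe sets. The interval lies above 0 in 14 of 33 genes, the fitted values of Pole and of 1 further probe set each of Mcm3, E2f1 and Ccne1 rest on basal levels within the Bacillus controls and are not measured folds, and the dashed line marks the median of all tested genes, -0.12.

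Replication genes outside the list had a smaller median difference. Of 48 further genes of origin firing, elongation and chromatin copying, 44 were tested; 1 was called higher and 0 lower, 29 had a positive log2 fold change, and the median was 0.31. At an unadjusted p under 0.05, 11 were higher and 0 were lower, against 7.91% and 10.6% of all tested genes. Of all tested genes 41.6% were positive, 0.838% were called higher and 0.136% lower. The called gene was Pclaf, a small PCNA-binding protein, with 861, 767 and 1033 on the duct arrays, against 143 and 179.6 on the basal arrays. No duct array was near the basal arrays, and the log2 fold change was 2.35 (SE 0.26, adjusted p = 0.0297). Timeless, of the fork protection complex, followed at 1.36 (adjusted p = 0.278). At the other end were Gins3, a GINS subunit, at -0.80, and Orc3, an origin recognition subunit, at -0.47 (adjusted p = 0.469 and 0.341). Among the GINS subunits Gins1 was at 0.68, Gins2 at -0.16, Gins3 at -0.80 and Gins4, named after its value was seen, at -0.20. Limma's interval was 0.076 to 1.29 for Gins1. For Gins2, Gins3 and Gins4 it took in 0, at -1.43 to 1.10, -2.10 to 0.495 and -0.87 to 0.47. The second Gins2 probe set gave 0.26. These values do not show that subunits of the complex differed in direction.

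Genes of mitosis had a larger median difference. Of 32 listed mitosis genes 30 were tested; 1 was called higher and 0 lower, 27 were positive and the median log2 fold change was 1.24, against 0.69 in the S phase genes. At an unadjusted p under 0.05, 20 of the 30 were higher and 0 were lower, against 7.91% and 10.6% of all tested genes. Over all tested genes 41.6% were positive, and 0.838% were called higher and 0.136% lower. Ndc80, an outer kinetochore protein, was the called gene, with 1054, 559.8 and 823 on the duct arrays, against 128 and 134 on the basal arrays, which gives 2.45 (SE 0.33, adjusted p = 0.0427) on the log2 scale. Aurkb, the kinase of the chromosomal passenger complex, measured 568, 439.8 and 446 on the duct arrays, against 62.8 and 174 on the basal arrays (2.02 (SE 0.42, adjusted p = 0.0936)). Aurka, a spindle pole kinase, and Hmmr, a spindle protein, were at -0.61 and -0.30 (adjusted p = 0.383 and 0.666). By array, the median log2 difference of the mitosis genes from the basal mean was 1.48, 0.87 and 1.36 on duct replicates 1, 2 and 3, so for both lists duct replicate 2 was the lowest of the duct arrays. The difference between the lists was not tested.

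**Figure D4:**
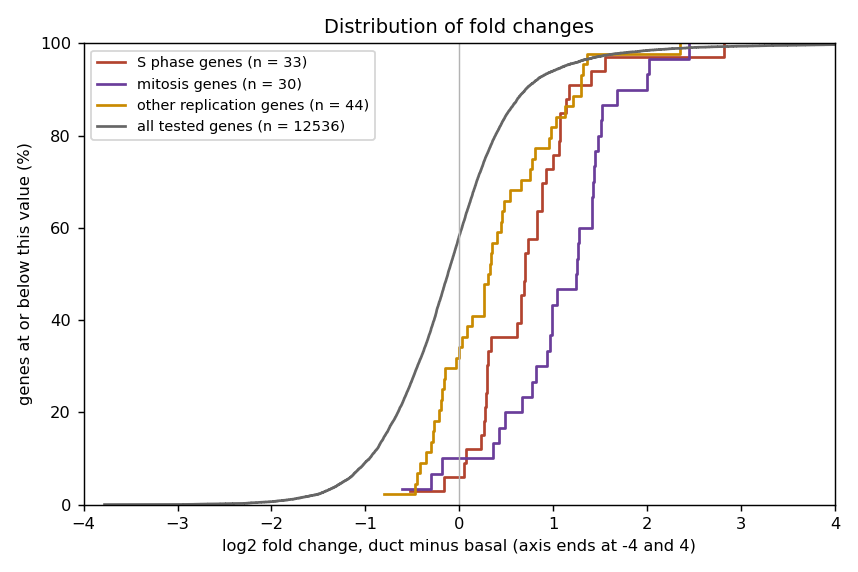
Cumulative share of genes (y axis, percent) at or below each log2 fold change, duct minus basal (x axis), for 33 S phase genes, 30 mitosis genes, 44 other replication genes and 12536 tested genes. The curves are ordered by their medians of 1.24 for mitosis, 0.69 for S phase, 0.31 for other replication genes and -0.12 for all genes.

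**Figure D5:**
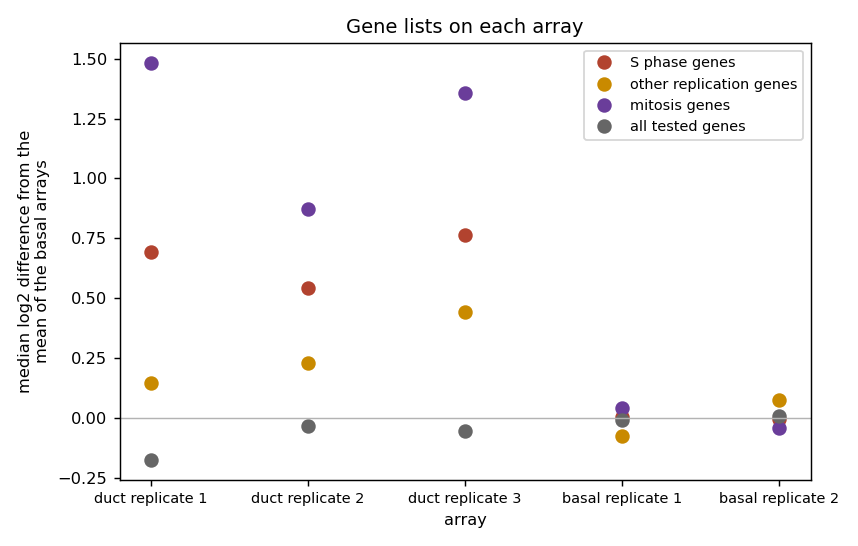
Median log2 difference from the mean of the basal arrays (y axis) on each array (x axis) for the same 4 groups of genes, 1 point per list and array. The S phase genes sit at 0.69, 0.54 and 0.77 on the duct arrays, below the mitosis genes and above the other replication genes on each of them.

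Regulators of the step into S phase had fold changes of both signs. Limma called 0 of 24 genes of the cyclins, kinases, E2F and RB family, against 0.838% higher and 0.136% lower of all tested genes. At an unadjusted p under 0.05 there were 5 higher and 1 lower, against 7.91% and 10.6% of all tested genes. Positive values numbered 14, against 41.6% of all tested genes, and the median log2 fold change was 0.13. Ccna2, cyclin A2 of S phase and G2, measured 1968, 1393 and 1342 on the duct arrays, against 592 and 513 on the basal arrays (1.46 (SE 0.28, adjusted p = 0.0814)), and E2f8, an atypical repressor E2F, was at 1.27 (adjusted p = 0.189). E2f4, a repressor E2F of resting cells, measured 117, 69.6 and 110.3 on the duct arrays, against 188 and 254 on the basal arrays. Its duct arrays were all below the basal arrays (-1.06 (SE 0.31, adjusted p = 0.167)). Tfdp2, a dimerisation partner of E2F proteins, was at -0.73 (adjusted p = 0.309).

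Inhibitors of cyclin-dependent kinases, which oppose that step, were not lower as a group. Of 5 tested genes 0 were called by limma, against 0.838% higher and 0.136% lower of all tested genes. At an unadjusted p under 0.05, 2 were higher and 0 lower, against 7.91% and 10.6% of all tested genes. The median log2 fold change was 0.51. Cdkn1a, the p53 target that encodes p21, measured 14165, 11838 and 12949 on the duct arrays, against 5241 and 4634 on the basal arrays. The lowest duct array was 2.26 times the higher basal array (1.39 (SE 0.24, adjusted p = 0.0691)). Cdkn2b, an inhibitor of CDK4 and CDK6, measured 1141, 1071 and 646 on the duct arrays, against 184 and 367 on the basal arrays (1.77 (SE 0.41, adjusted p = 0.113)). Cdkn1b, the inhibitor p27 of resting cells, measured 1705, 895 and 2243 on the duct arrays, against 3055 and 2621 on the basal arrays, with every duct array below both basal arrays (-0.90 (SE 0.43, adjusted p = 0.329)), and Cdkn2d, another inhibitor of CDK4 and CDK6, was at 0.058 (adjusted p = 0.950). Of 12 tested genes of the DNA damage response 0 were called by limma. At an unadjusted p under 0.05 there was 1 higher and 0 lower, against 7.91% and 10.6% of all tested genes. Their median was 0.18. Brca1, of homologous repair, and Gadd45a, of growth arrest, were the highest of these, at 0.94 and 0.90, and Rad54l, of recombination, and Sesn1, a p53 target, the lowest, at -0.95 and -0.59 (adjusted p = 0.653, 0.130, 0.278 and 0.392). Brca1 measured 95.6, 108 and 971 on the duct arrays, against 127 and 92.7 on the basal arrays. Its positive value rested on duct replicate 3 alone.

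Markers of other cell types were read on the same arrays. The summed intensity of 14 leukocyte markers of 15 listed was 15148 to 21525 on the duct arrays and 6569 and 18485 on the basal arrays; most of it was Lyz2, and Coro1a was within the Bacillus controls on all 5 arrays. Of the 8 leukocyte markers tested 0 were called by limma and 7 had a positive log2 fold change, against 41.6% of all tested genes. Their median was 0.65, beside 0.69 for the S phase genes. At an unadjusted p under 0.05, 1 was higher and 0 were lower, against 7.91% and 10.6% of all tested genes. Cd68 alone had every duct array above every basal array. That is 12.5% of the tested leukocyte markers, against 16.5% of all tested genes and 63.6% of the S phase genes. Of 8 thyroid markers 5 were measured, with a sum of 9406 to 21578 on the duct arrays and 313 and 271 on the basal arrays. Nearly all of it was Tg on the duct arrays. All 4 tested were higher on every duct array, against 16.5% of all tested genes, with a median log2 fold change of 1.84. Sums for 10 fibroblast and cartilage markers were 3250 to 6256 in duct and 4268 and 5355 in basal cells, with Dcn the largest part. Of the 7 tested 4 were positive and 3 negative. Among them Sox9 measured 1135, 1432 and 1024 on the duct arrays, against 54.5 and 227 on the basal arrays. Comp was also higher on every duct array. Sums for 8 endothelial and muscle markers were 459 to 1098 in duct and 778 and 747 in basal cells. There Acta2 was higher and Myh11 lower on every duct array. The 8 measured ciliated cell markers summed to 693 to 1429 in duct and 1327 and 2169 in basal cells, with Spag6 within the Bacillus controls throughout. The 7 club and secretory markers summed to 112042 to 140251.0 in duct and 124323 and 172470.0 in basal cells, and 8 airway basal cell genes to 83543 to 96663 in duct and 66705 and 62708 in basal cells. Members of that last list went both ways: Krt14 averaged 19816 ± 2251 in duct and 1430.0 ± 146 in basal cells, and Krt17, Krt5, Itga6 and Krt15 were also higher on every duct array, while Trp63 (-0.33), Pdpn (-0.80) and Ngfr (-1.76) were lower on every duct array. The part of other cells in the values of the S phase genes was not tested.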

How the data were processed

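The deposited values are linear intensities, 1 for each probe set on each array, from an Affymetrix Mouse Genome 430 chip per the labels; the authors scaled each array so that its mean, after the lowest and highest 2% of probe sets are dropped, is 500.0. The summary method, background correction and software are not named by any source used here, and no column of another sample was present (0). Gene symbols came from the platform annotation: of 45101, 34945 had 1 gene symbol, 932 had several, 9160 had none listed and 64 were controls. A gene stood by its most intense probe set by mean log2(intensity + 16), and probe sets in the lowest 40% were left out. limma 3.58.1 (R 4.3.3) tested duct minus basal, 2-sided, on 5 arrays without covariates, with Benjamini-Hochberg adjustment over 12536 genes or 27022 probe sets and a threshold of 0.05. On simulated data the fit was checked only for returning planted fold changes on average. That check does not bear on the number of genes called here. Where both basal arrays lay at or under their brightest Bacillus control probe set (27 such controls, 0.561 to 86.5), the fold is a lower bound, the mean log2 duct level over that of those control probe sets.

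The members and gene lists were chosen with earlier results of these data known. Every tested member was named, with values on every array for up to 4 members of a role by size of the fold change and for those whose fold change was under the median of all genes or whose tested probe sets differed in sign. Of each other list the 2 highest and 2 lowest tested genes and any called gene were named. Marker lists are given as sums, with some members named. Each sample is a separate pool, and the main fit did not pair arrays by replicate number. The deviations of same-numbered arrays correlated at -0.083 and -0.037 across genes. The deviations of the 2 basal arrays mirror each other, so these values cannot show whether same-numbered arrays were handled together. Figures were drawn with matplotlib 3.10.9.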

Additional observations from a re-analysis of the deposited data

How the results depend on the processing

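The median of the S phase genes was positive under all 16 alternatives run. Positive fold changes numbered 26 of 32 tested genes without possibly cross-binding probe sets, 27 of 28 with the lowest 60% left out, and 29 to 32 in the other alternatives. Their median log2 fold change was 0.81 with quantile normalization, 0.90 with arrays centred on their medians and 0.57 with probe sets averaged by gene, and ran from 0.55 to 0.69 with 1 array left out. The median of all genes was then -0.046, 0.084 and -0.12, so the distance between these medians was 0.86, 0.82 and 0.69. With the same 3 settings the other replication genes had medians of 0.44, 0.52 and 0.19. The number of S phase genes called was 2 with median centring (Mcm3 and Pole), 3 with a pseudocount of 64 (Mcm3, Mcm5 and Pole), 3 with a filter at the lowest 60% (Mcm3, Mcm5 and Tk1) and 7 with an intensity trend and robust fit (Cdt1, Mcm3, Mcm5, Mcm7, Orc6, Pcna and Pole), and 0 in every other alternative. S phase probe sets called were 4 of 63 with median centring, 2 of 50 with the lowest 60% left out and 9 of 63 with the trend. The share of all probe sets called under these settings is not given here, so these counts cannot be set against it. Over all genes the calls numbered 122 as reported, 338 with median centring, 303 with a pseudocount of 64, 36 with no filter, 408 with the lowest 60% left out, 191 with the mean of probe sets and 942 with the trend, and 0 to 48 with 1 array left out. S phase genes higher at an unadjusted p under 0.05 numbered 9, 11 and 7 without duct replicates 1, 2 and 3. The shares of all tested genes were 7.47%, 6.6% and 6.02%. Without duct replicate 3, 1 S phase gene, Tyms, was lower, against 9.27% of all tested genes. The replicate number was also used as a block, which duct replicate 3 does not inform. Then 6 S phase genes were higher and 1, Tyms, lower at an unadjusted p under 0.05, against 5.19% and 7.64% of all tested genes. In that fit 0 genes were called in all. Whether same-numbered arrays share more than the number was not settled here. Fits with 1 basal array take its spread to be that of the duct group.

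The sign turned for 7 genes. Gins2 was at 0.042 with median centring, 0.049 with the mean of probe sets, and with 1 array left out it ran from -0.72 to 0.39, positive without duct replicate 1 (0.084) or basal replicate 1. Lig1 was at -0.053 with array weights, -0.081 with the replicate block and -0.13 to 0.32 with 1 array left out, positive only without duct replicate 2 or basal replicate 1. Mcm2 was at -0.076 with the mean of probe sets, -0.20 without possibly cross-binding probe sets, -0.12 with the replicate block and -0.12 to 0.31 with 1 array left out, negative without duct replicates 2 or 3 (-0.040 and -0.12). Without possibly cross-binding probe sets Dnmt1 was at -0.19, Mcm7 at -0.12 and Pold1 at -0.28, and with the mean of probe sets Rpa2 was at -0.29. The causes were not tested, and the number of arrays limits all of these values.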
